A study of Mus musculus with 4 samples.

Results

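The solute carriers are the genes named Slc, a family number, a letter and a member number. Members were all probe sets annotated to a single gene whose symbol has this form, leaving out Slc2a2, Slc10a1, Slc25a20 and Slc48a1. This gave 178 of 12488 probe sets, which read 146 of 8251 genes. The rule goes by symbol alone and used no signal. It also takes in Slc9a3r1, Slc9a3r2 and Slc4a1ap, which encode scaffold or adaptor proteins that bind carriers. Substrate classes were assigned by family number, so single members can carry something else than their class name says.

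Liver RNA of female mice aged 8 months, killed in the fed state, was hybridised to 4 arrays, 1 for each group. Wild-type and HSL-null mice ate, for 6 months, a normal diet (ND) with 11% of its energy as fat or a fat-rich diet (FD) with 58%. HSL-null mice carry a general knockout of hormone-sensitive lipase, an enzyme encoded by Lipe that splits stored fat and cholesteryl esters. The question of the study was how its loss alters liver metabolism. Each array read a pool, of 6 livers for both wild-type groups and the HSL-null ND group, and of 4 livers for the HSL-null FD group. The sources used here name no mouse strain. Pooling leaves no spread between animals, so there was no test, and "higher" or "lower" refers to these 4 pools alone. Values are MAS5 signals on a linear scale without a unit. The 4 arrays had similar median signals, from 25.2 to 28.3, and Lipe itself had 28 and 34 in wild type on ND and FD against 11.9 and 15.9 in HSL-null liver. Each genotype had its own solution lot in the run settings, so the lot cannot be told apart from the genotype. Where 4 signals follow each other without a group name, their order is wild type ND, wild type FD, HSL-null ND, HSL-null FD.

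Solute carriers move nutrients, ions, vitamins and metabolites across the plasma membrane and the membranes of organelles, without using ATP directly. In liver they take up amino acids, nucleosides, vitamins and metals from the blood, feed mitochondria with substrates, and pass glucose 6-phosphate into the endoplasmic reticulum, where it is cut to glucose. Many work as exchangers or are driven by the sodium gradient, and several, such as the heavy chains of the amino acid exchangers, act only with a partner protein.

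The windows around the annotated start sites of 4 genes are shown because the results turn on them: Slc5a6 was the only kept member past 2-fold, Slc20a1 and Slc37a4 had the same direction in repeated comparisons, and Slc25a1 is the carrier that exports citrate for lipid synthesis. They come from RefSeq (GRCm38.p6), hold 250 bases before and 50 after the start, and are the most upstream window where a gene has several. Slc5a6 (gene 330064) lies at chr5:31048513-31048812 on the minus strand, Slc20a1 (gene 20515) at chr2:129198523-129198822 on the plus strand, Slc37a4 (gene 14385) at chr9:44396696-44396995 on the plus strand, and Slc25a1 (gene 13358) at chr16:17928170-17928469 on the minus strand. Capitals mark every match, on either strand, to the GC box GGGCGG, the CCAAT box CCAAT, the E-box CACGTG and the cyclic AMP response element TGACGTCA.
Slc5a6: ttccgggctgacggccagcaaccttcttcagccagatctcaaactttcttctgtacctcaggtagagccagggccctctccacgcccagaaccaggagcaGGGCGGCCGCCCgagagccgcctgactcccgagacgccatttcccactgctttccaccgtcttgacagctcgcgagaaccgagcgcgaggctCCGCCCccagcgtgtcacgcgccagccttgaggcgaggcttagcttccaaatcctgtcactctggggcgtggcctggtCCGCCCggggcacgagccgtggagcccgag
Slc20a1: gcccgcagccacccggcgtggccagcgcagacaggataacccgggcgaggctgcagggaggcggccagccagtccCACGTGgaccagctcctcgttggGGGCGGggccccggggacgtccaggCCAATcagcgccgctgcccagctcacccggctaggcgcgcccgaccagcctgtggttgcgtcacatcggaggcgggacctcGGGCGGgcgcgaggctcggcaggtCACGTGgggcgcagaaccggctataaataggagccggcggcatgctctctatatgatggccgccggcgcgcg
Slc37a4: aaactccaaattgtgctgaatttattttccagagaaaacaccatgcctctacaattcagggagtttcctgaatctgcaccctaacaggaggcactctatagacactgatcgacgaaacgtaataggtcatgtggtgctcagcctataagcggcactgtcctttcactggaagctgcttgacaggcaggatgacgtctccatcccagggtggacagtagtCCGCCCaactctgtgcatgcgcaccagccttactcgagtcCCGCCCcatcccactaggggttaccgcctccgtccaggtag
Slc25a1: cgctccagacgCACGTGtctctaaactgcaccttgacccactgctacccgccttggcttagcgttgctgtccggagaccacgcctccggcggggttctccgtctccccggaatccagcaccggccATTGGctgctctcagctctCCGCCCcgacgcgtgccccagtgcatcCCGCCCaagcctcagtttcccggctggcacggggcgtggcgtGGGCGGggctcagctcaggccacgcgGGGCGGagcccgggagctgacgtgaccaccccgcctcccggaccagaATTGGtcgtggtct
The Slc5a6 window held 4 GC boxes and no other motif searched. The Slc20a1 window held 2 GC boxes, 1 CCAAT box and 2 E-boxes, the Slc37a4 window 2 GC boxes, and the Slc25a1 window 4 GC boxes, 2 CCAAT boxes and 1 E-box. No match overlapped another. A match is a stretch of letters and not a site shown to be used. Of the 32851 windows of all genes, 35.7% held a GC box, 37.4% a CCAAT box, 7.15% an E-box and 1.79% the response element. The windows of kept members, 109 windows of 70 genes, held them in 63.3%, 28.4%, 10.1% and 0.917%. The windows of all kept genes had 61.6%, 37.4%, 10.7% and 2.86%. GC boxes and E-boxes were thus about as frequent in the members as in all kept genes. The CCAAT box and the response element were less frequent in the members, the response element with a match in 1 window. These differences were not tested.

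Most solute carrier genes differed little between the 4 pools. Of the 146 genes, 83 had a probe set with a mean signal of at least 26.9, the median of all probe sets, and 63 lay under it. That share, 56.8%, was close to the 58.5% over all genes. Each kept gene is given by its brightest probe set, and the signals of the 83 ran from 21.0 to 2288, above the floor of 6.1 to which lower signals are raised. In 64 of the 83 genes (77.1%) no comparison reached 1.5-fold as the authors scaled the arrays, against 74.6% of all 4829 kept genes. Where a gene had several kept probe sets, the spread that their disagreement gives a log2 ratio (SD) was 0.298 over 687 genes and 0.239 over the 10 members with a second kept probe set, and leaves out any error that an array shares.

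HSL-null liver on ND had 1 of the 83 members at least 2-fold different from wild type, Slc5a6, beside a background of 1.57% over all kept genes. It was lower, as were 1.08% of all kept genes. At 1.5-fold there were 2 members, beside 6.73%: Slc22a17 was higher (background 2.36%) and Slc5a6 lower (background 4.37%). Under each of 3 other scalings (quantile normalization, median scaling and cyclic loess) 2 were higher and 1 lower, the added gene being Slc16a1. On FD, 0 members reached 2-fold, beside 2.82% of all kept genes, 1.86% higher and 0.953% lower. At 1.5-fold on FD there were 12 members, beside 12.9%, with 8 higher (background 9.17%) and 4 lower (background 3.77%). That split depended on the scaling: it was 5 higher and 8 lower under quantile normalization, 4 and 10 under median scaling, and 6 and 8 under cyclic loess.

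Diet gave a similar picture. In wild type 0 members were 2-fold different between FD and ND, beside 3.15% of all kept genes, 0.787% higher and 2.36% lower. At 1.5-fold there were 10, beside 14%, with 4 higher (background 4.56%) and 6 lower (background 9.48%), and these were 6 and 5 under quantile normalization, 7 and 4 under median scaling, and 5 and 5 under cyclic loess. In HSL-null liver 0 members reached 2-fold, beside 1.45%, of which 0.828% were higher and 0.621% lower. At 1.5-fold there were 5, beside 6.44%, with 2 higher (background 4.14%) and 3 lower (background 2.3%), and 1 higher with 3, 5 and 4 lower under those scalings. As scaled by the authors and in both directions together, the share of members was below that of all kept genes in each of these counts except genotype on FD at 1.5-fold, where it was 14.5% against 12.9%.

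The centre of the members also lay near that of all genes. For HSL-null over wild type the median log2 ratio was -0.041 over the members and -0.018 over all kept genes on ND, and 0.039 and 0.067 on FD. For diet in wild type, members had a median of -0.026 and all genes -0.047. For diet in HSL-null liver, members had 0.062 and all genes 0.041. The ranges between quartiles of the members were 0.34, 0.54, 0.46 and 0.36 in the same order, beside 0.35, 0.47, 0.51 and 0.33 for all kept genes. Scaling each array to its median shifted the median of all genes to 0.11 for genotype on ND and to -0.10 on FD, and the members shifted with it. The scatter of genotype ratios on both diets shows the members spread within the cloud of other genes.

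**Figure D1:**
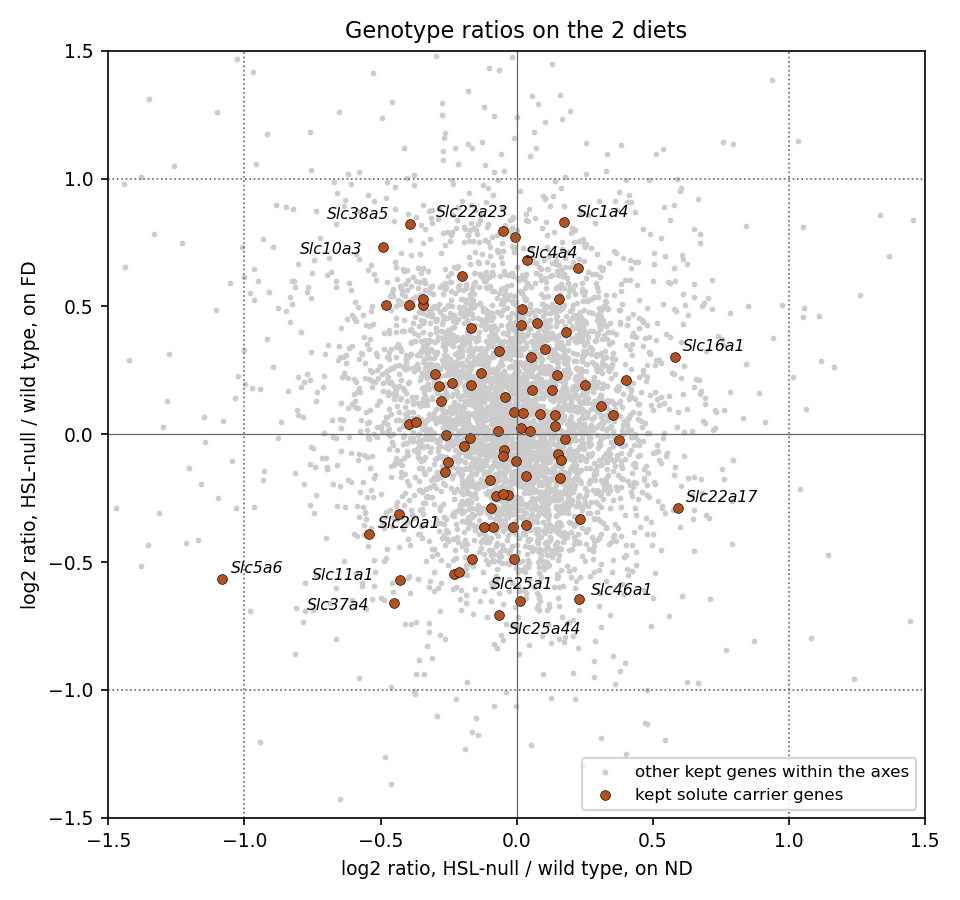
Log2 ratio of HSL-null over wild type on ND (x axis) against the same ratio on FD (y axis) for the 83 kept solute carrier genes (orange) and the other kept genes within the axes (grey); dotted lines mark 2-fold. The members fill the middle of the cloud, and Slc5a6, at -1.08 on ND and -0.57 on FD, is the only member past a dotted line.

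Slc5a6 encodes the sodium-dependent multivitamin transporter, which takes up biotin, pantothenate and lipoate, the precursors of cofactors of carboxylases and of coenzyme A. Its signal was 56.7 in the wild-type ND pool, 48.1 in the wild-type FD pool, 26.8 in the HSL-null ND pool and 32.5 in the HSL-null FD pool. Both HSL-null pools were lower than both wild-type pools. Of all kept genes, 20.3% had a lower signal in HSL-null liver on each diet, which is a looser condition. The share whose HSL-null pools both lie below both wild-type pools was not counted. The gene was 2.12-fold lower on ND (log2 ratio -1.08) and had a log2 ratio of -0.57 on FD, with a mean of -0.82 ± 0.36 (SD, n = 2 array pairs, 1 on each diet and so no replicates). The ratio on ND lies at the threshold: it was -0.97 under quantile normalization, -0.95 under median scaling, just under 1 in size under cyclic loess and -0.76 with a pseudocount of 16. The summed signal of the 6 kept markers of the exocrine pancreas was also high in wild type on ND, at 897.7 against 303.1 to 363.7 on the other arrays. Of these markers, Prss2 and Reg1 passed the filter only through that array. Cela1 was higher in HSL-null on FD (184.1) than in wild type on ND (158.5). The part of pancreas tissue in the Slc5a6 values was not tested.

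Slc37a4 encodes the transporter that brings glucose 6-phosphate into the endoplasmic reticulum, the step before glucose 6-phosphatase in glucose release. Its signals were 848.3 in the wild-type ND pool, 628.9 in the wild-type FD pool, 621.5 in the HSL-null ND pool and 397.8 in the HSL-null FD pool. The control pool was highest, the pools with either HSL loss or FD lay close together, and the pool with both was lowest. The log2 ratios were -0.45 and -0.66 for genotype on ND and FD, and -0.43 and -0.64 for diet in wild type and HSL-null liver. The 2 genotype ratios, which share no array, had a mean of -0.55 ± 0.15 (SD, n = 2 array pairs). From wild type on ND to HSL-null on FD the signal differed 2.13-fold, a contrast that changes genotype and diet together and was chosen after the values were seen.

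A pattern of this kind, all 4 ratios in 1 direction and each larger than the spread between probe sets, was looked for in all genes after Slc37a4 was seen. It was found in 44 of 4829 genes (0.911%) and in 2 of the 83 members, Slc37a4 (lower, as 0.435% of all genes) and Slc16a1 (higher, as 0.476%). Under median scaling no member met it: Slc37a4 had a diet ratio of -0.29 in wild type, and Slc16a1 had 0.13 for genotype on FD and 0.19 for diet in HSL-null liver. Slc37a4 met it and Slc16a1 did not under quantile normalization and cyclic loess. Slc16a1 encodes a transporter of lactate, pyruvate and ketone bodies that ships them together with a proton. It went the opposite way, with signals of 21.0 in the wild-type ND pool, 32.3 in the wild-type FD pool, 31.4 in the HSL-null ND pool and 39.8 in the HSL-null FD pool. The log2 ratios were 0.58 and 0.30 for genotype on ND and FD, and 0.62 and 0.34 for diet in wild type and HSL-null liver. Its signals are low, and with the floor raised to the median the genotype ratio on ND was 0.23 and the diet ratio in wild type 0.27. Basigin, encoded by Bsg, escorts Slc16a1 to the membrane and had log2 ratios of 0.17 and -0.094 for genotype.

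Slc29a1, which encodes an equilibrative carrier of adenosine and other nucleosides, was lower in both FD pools. Its signals were 613.0 in the wild-type ND pool, 458.9 in the wild-type FD pool, 564.8 in the HSL-null ND pool and 357.3 in the HSL-null FD pool. The FD pools did not overlap the ND pools. The share of all kept genes whose pools separate in this way, by diet or by genotype, was not counted. Diet had log2 ratios of -0.42 in wild type and -0.66 in HSL-null liver, while genotype had -0.12 on ND, which was 0.012 under median scaling, and -0.36 on FD.

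Slc20a1 encodes a sodium-dependent phosphate transporter. It was the only kept member at least 1.5-fold different in the same direction for diet in both genotypes, a rule that 0.89% of all kept genes met. It met that rule under the 3 other scalings too, but with a pseudocount of 16 no member did. Its signals were 47.3 in the wild-type ND pool, 78.3 in the wild-type FD pool, 32.5 in the HSL-null ND pool and 59.7 in the HSL-null FD pool. Both FD pools were higher than both ND pools, and on each diet the HSL-null pool was the lower. How many of all kept genes separate by diet in this way was not counted. FD against ND gave log2 ratios of 0.73 in wild type and 0.88 in HSL-null liver, with a mean of 0.80 ± 0.11 (SD, n = 2 array pairs, 1 per genotype). Genotype gave -0.54 on ND and -0.39 on FD. The other kept phosphate carrier, Slc17a1, had signals of 34.7, 47.3, 29.6 and 32.4 in the 2 wild-type and then the 2 HSL-null pools, ND first, so it too had a lower signal in HSL-null liver on each diet. Its genotype ratios were -0.23 on ND and -0.55 on FD. Another kept probe set of Slc17a1 gave -0.051 and -0.23, both smaller than the spread between probe sets of 0.298. No member reached 1.5-fold in the same direction for genotype on both diets, a rule that also took in 0.89% of all kept genes. Under the 3 other scalings Slc5a6 met it, with ratios on FD from -0.71 to -0.74.

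**Figure D2:**
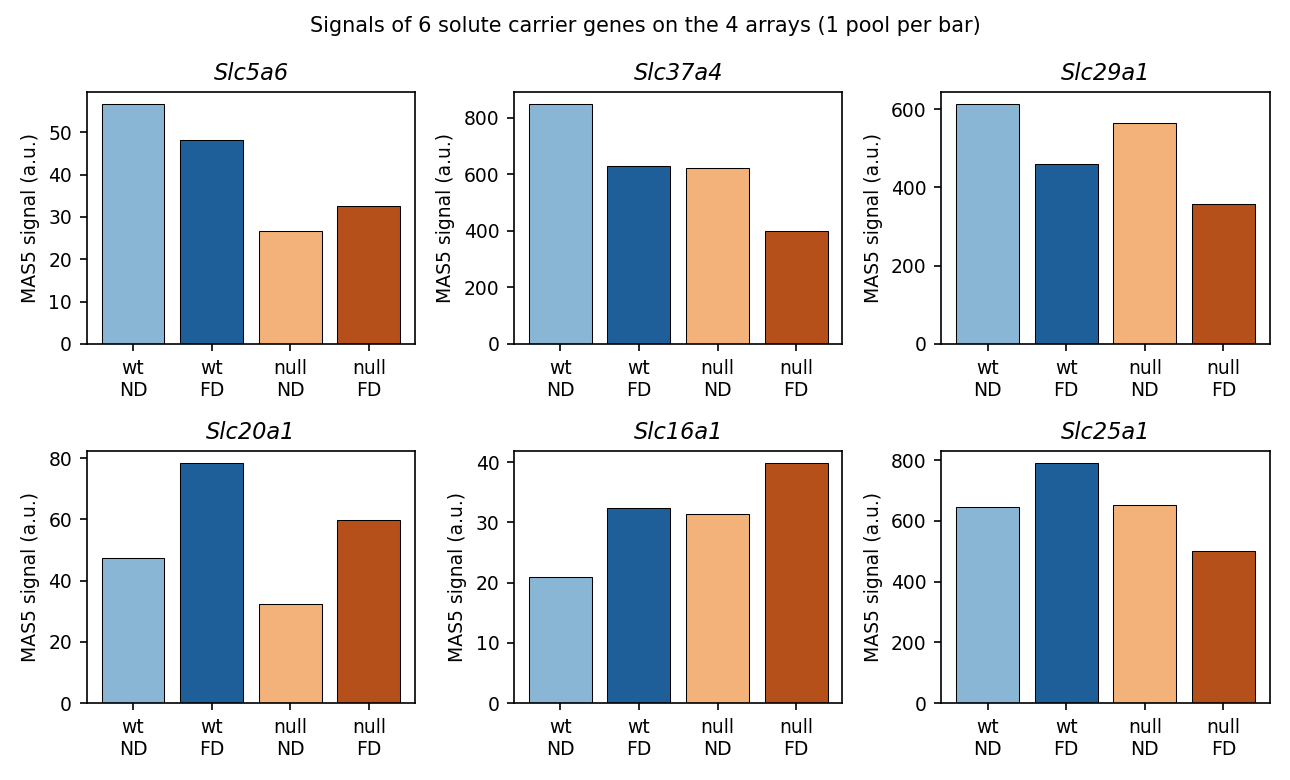
MAS5 signals (arbitrary units, axes from 0) of Slc5a6, Slc37a4, Slc29a1, Slc20a1, Slc16a1 and Slc25a1 on the 4 arrays; each bar is a single pool, so there is no error bar. Slc37a4 steps down from 848.3 to 397.8 and Slc16a1 up from 21.0 to 39.8, Slc20a1 is higher in both FD pools, and Slc25a1 is lowest in HSL-null on FD.

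The mitochondrial carriers of family 25 exchange metabolites, nucleotides and ions across the inner mitochondrial membrane, and 13 of 19 genes were kept. Their median log2 ratios were -0.0027 and -0.078 for genotype on ND and FD, and 0.084 and 0.037 for diet in wild type and HSL-null liver. Slc25a1, which exports citrate to the cytosol as the carbon source of fatty acids and sterols, had signals of 647.2 in the wild-type ND pool, 789.9 in the wild-type FD pool, 652.5 in the HSL-null ND pool and 502.3 in the HSL-null FD pool. HSL-null on FD was the lowest pool and wild type on FD the highest. The genotype ratio was 0.012 on ND and -0.65 on FD, and another kept probe set of the gene gave 0.13 and -0.41.

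Slc25a44, which carries branched-chain amino acids into mitochondria, was low in the HSL-null FD pool alone. Its signals were 117.5 and 115.4 in the wild-type ND and FD pools, 112.3 in the HSL-null ND pool, and 70.7 in the HSL-null FD pool. The first 3 pools lay together, and the log2 ratios against HSL-null on FD were -0.71 for genotype and -0.67 for diet. Slc25a25, a carrier of ATP-magnesium and phosphate that answers calcium, had the opposite directions on the diets: 602.2 and 407.0 in wild type on ND and FD, and 431.7 and 578.0 in HSL-null liver. Its genotype ratio was -0.48 on ND and 0.51 on FD.

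Some abundant mitochondrial carriers of liver were level. Slc25a15, the ornithine carrier of the urea cycle, had signals of 1796, 1634, 1817 and 1663 in the 2 wild-type and then the 2 HSL-null pools, ND first. Slc25a39, linked to mitochondrial glutathione import, had 1026, 1013, 1020 and 1076 in the same order, and Slc25a47, a carrier found mainly in liver, had 1431, 1422, 1358 and 1204. The largest of their log2 ratios in size was -0.24, for Slc25a47 by genotype on FD, which is below the spread between probe sets. The ADP/ATP carriers Slc25a4 and Slc25a5 had log2 ratios from -0.15 to 0.33, the oxoglutarate carrier Slc25a11 from -0.078 to 0.27, and the dicarboxylate carrier Slc25a10 from -0.25 to 0.42. Slc25a17, a carrier of peroxisomes, had 202.7, 271.9, 259.4 and 286.6, lowest in wild type on ND, with ratios of 0.36 for genotype on ND and 0.42 for diet in wild type. Slc25a28, an iron carrier, had 52.4, 67.1, 52.1 and 47.9, highest in wild type on FD, with a genotype ratio of -0.49 on FD, which was -0.65 under median scaling.

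Amino acid carriers were the largest class, with 16 of 32 genes kept. Their median ratios were -0.039 and 0.044 for genotype on ND and FD and -0.15 and 0.047 for diet in wild type and HSL-null liver. None of the 16 reached 1.5-fold for genotype on ND, beside 6.73% of all kept genes. On FD 4 did, beside 12.9%, all of them higher in HSL-null liver (background 9.17%). Under median scaling Slc1a4 and Slc38a5 stayed past 1.5-fold on FD, and Slc6a13 was lower, at -0.71. Slc1a4, a carrier of alanine, serine and cysteine, had signals of 47.9 and 45.9 in wild type on ND and FD and of 54.1 and 81.7 in HSL-null liver, with HSL-null on FD highest and a genotype ratio of 0.83 on FD. Slc38a5, which carries glutamine, had 42.1 and 22.2 in wild type, beside 32.1 and 39.3 in HSL-null liver, with wild type on FD lowest and a ratio of 0.82. Slc38a2, a sodium-coupled carrier of neutral amino acids that cells raise when amino acids are scarce, had 223.7 and 162.0 in wild type, beside 229.9 and 259.6 in HSL-null liver, with a ratio of 0.68. Slc3a1, the heavy chain of a cystine and dibasic amino acid exchanger, had 142.5 and 116.0 in wild type, beside 166.8 and 182.3 in HSL-null liver, with a ratio of 0.65. In each of these 4 genes wild type on FD was the lowest pool.

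The cationic amino acid carrier Slc7a2, which brings arginine into hepatocytes, was also lowest in wild type on FD. Its signals were 279.6 and 159.6 in wild type on ND and FD and 220.4 and 230.0 in HSL-null liver, a diet ratio of -0.81 in wild type and 0.062 in HSL-null liver. Slc38a4, the neutral amino acid carrier of hepatocytes, was level, with 2138, 2288, 2068 and 1945. Slc3a2, the heavy chain shared by many exchangers, had 285.9, 412.0, 335.7 and 327.4 in the same order, with wild type on FD highest. Slc6a13, a carrier of GABA and taurine, had 651.6, 818.3, 563.0 and 562.8, again highest in wild type on FD. The class thus held genes at both extremes on the wild-type FD array.

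Over the 83 members, wild type on FD was the lowest of the 4 arrays in 28 (33.7%), against 36.1% of all kept genes, and HSL-null on FD the highest in 30 (36.1%), against 29%. Both the genotype comparison on FD and the diet comparison in wild type use the wild-type FD array, so members that are low or high on it enter both. Summed markers of some other cell types were lowest on that array too, and those of others were not. The 3 kept lymphocyte markers summed to 162.3 there and to 200.7 to 408.8 elsewhere, and the 7 macrophage markers to 1260 against 1673 to 1830. The 3 fibroblast and stellate cell markers summed to 99.8, beside 99.9 in the HSL-null ND pool and up to 157.9 elsewhere, and the 3 endothelial markers to 149.3 against 179.2 to 204.5. Single markers did not all follow these sums. Cd79b (19.8 against 20.6) and Col1a1 (26.3 against 35.8) were lower in the HSL-null ND pool than in wild type on FD. Msr1 was lower in wild type on ND (28.6 against 29.6). The other kept markers of these types were lowest in wild type on FD. These markers all had signals above the floor. Ighm made most of the lymphocyte sum, with 128 in wild type on FD and 156.5 to 341 elsewhere. Ptprc and Cd79b passed the filter only with the wild-type ND array, where they were highest (47.8 and 38.3). The sum of the 4 red cell markers was highest in wild type on FD, at 3081 against 2446 to 2981, and Hba-a1 (2808) made most of it. Hba-a1 and Alas2 were highest there, Car2 was lowest there and Bpgm lay between. The sum of the 6 exocrine pancreas markers (313.9) and Lep (109.1) were not at their lowest there. In whole liver RNA fewer cells of a type and less RNA per cell cannot be told apart, and the part of these cells in the values of the carriers was not tested. The 7 kept hepatocyte markers summed to 20770 in the wild-type FD pool, 20841 in the HSL-null FD pool, 23636 in the HSL-null ND pool and 27943 in the wild-type ND pool.

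**Figure D3:**
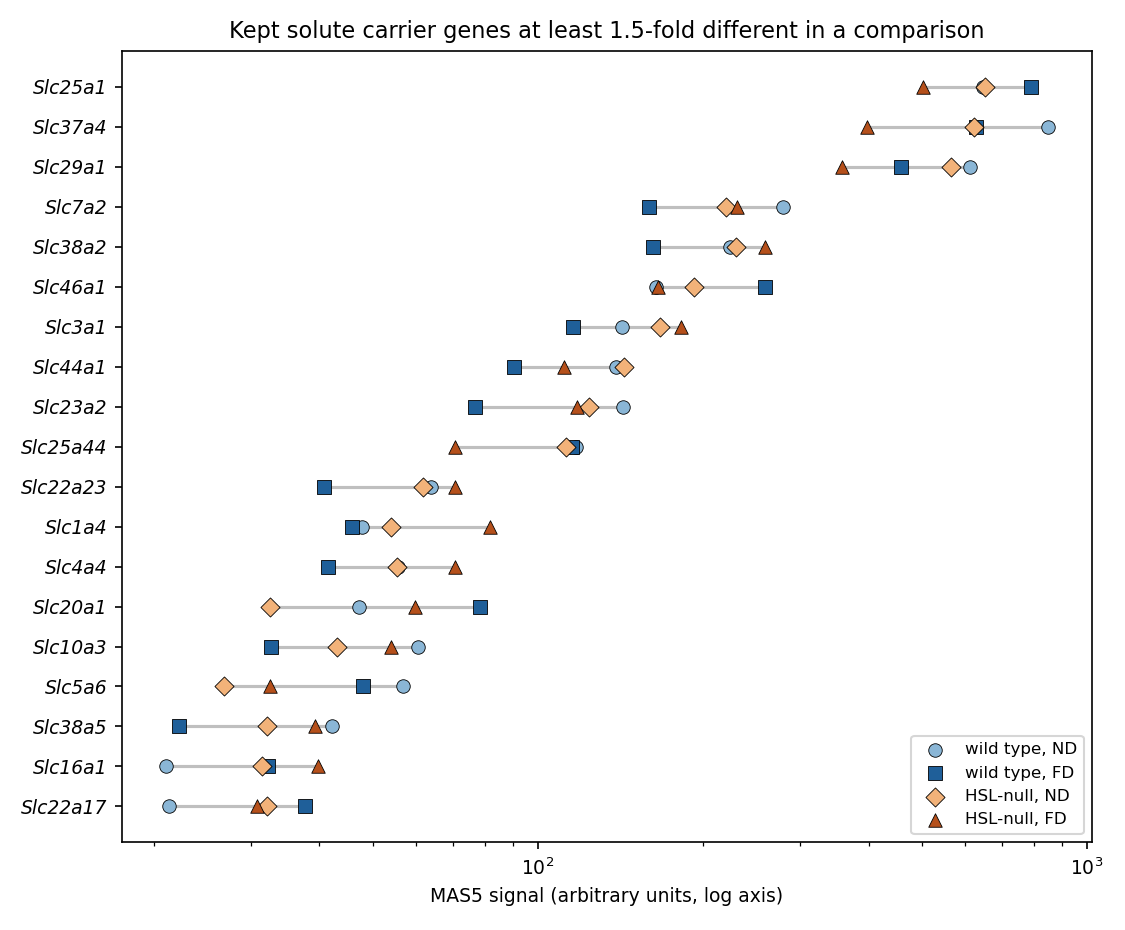
MAS5 signal (log axis) on each of the 4 arrays for the 19 kept solute carrier genes at least 1.5-fold different in a comparison; symbols mark the pools and grey lines span their range. The dark blue square, wild type on FD, is lowest for Slc10a3, Slc1a4, Slc22a23, Slc23a2, Slc38a2, Slc38a5, Slc3a1, Slc44a1, Slc4a4 and Slc7a2 and highest for Slc20a1, Slc22a17, Slc25a1 and Slc46a1.

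Among carriers of vitamins and choline, 6 of 8 genes were kept. Slc46a1, the proton-coupled folate transporter, which also moves heme, was high in wild type on FD alone, with 164.2 in the wild-type ND pool, 259.1 in the wild-type FD pool, 192.3 in the HSL-null ND pool and 165.7 in the HSL-null FD pool. The diet ratio in wild type was 0.66 and the genotype ratio on FD -0.64. Slc23a2, a sodium-coupled ascorbate transporter, had the reverse pattern, with 142.6, 76.7, 124.0 and 117.9 in that order, a diet ratio of -0.89 in wild type and a genotype ratio of 0.62 on FD. Slc44a1, a choline transporter, was lower in both FD pools, with 138.5 and 90.5 in wild type, beside 143.7 and 111.6 in HSL-null liver and diet ratios of -0.61 and -0.36. The carriers listed here therefore had no common direction. Slc5a6, the multivitamin transporter, was classed with the sugars by its family number and is not among them.

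Carriers of organic ions had 7 of 13 genes kept. Slc10a3, a member of the bile acid carrier family with no settled substrate, had 60.5 and 32.6 in wild type on ND and FD and 43.1 and 54.1 in HSL-null liver. Slc22a23, whose substrate is not settled either, had 63.9 and 40.8 in wild type, beside 61.7 and 70.7 in HSL-null liver. Both were lowest in wild type on FD, with genotype ratios on FD of 0.73 and 0.79. Slc22a17, which encodes a receptor of lipocalin 2, was low in wild type on ND only, with 21.3 against 37.6, 32.1 and 30.8 in the wild-type FD pool, HSL-null on ND and HSL-null on FD. Its genotype ratio on ND, 0.59, was 0.27 with the floor at the median. Slc22a5, the carnitine transporter needed for fatty acid oxidation, had 70.1 and 59.3 in wild type, beside 51.9 and 47.8 in HSL-null liver, with genotype ratios of -0.43 and -0.31.

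Slc22a18 and Slc22a30 differed less. Slc22a18 had 315.8, 406.4, 313.2 and 316.5, with wild type on FD highest. Slc22a30 had 384.9, 513.3, 509.0 and 595.3, with wild type on ND lowest, and a further probe set that it shares with Slc22a28 was not counted as a member, so near-identical copies may enter its signal.

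Fatty acid transport proteins of family 27 also activate their substrates to coenzyme A esters, and 3 of 5 genes were kept. Slc27a2, of peroxisomes and the endoplasmic reticulum, had 1818, 1621, 1892 and 1828 in the 2 wild-type and then the 2 HSL-null pools, ND first. Slc27a5, which also activates bile acids for conjugation, had 1545, 1537, 1581 and 1204, and Slc27a4 27.8, 36.4, 34.5 and 39.3. HSL-null on FD was the lowest pool for Slc27a5 and the highest for Slc27a4. No ratio of the class reached 1.5-fold, as in 74.6% of all kept genes, and Slc27a5 had a genotype ratio of -0.35 on FD.

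Carriers of chloride, bicarbonate, sodium and protons had 6 of 15 genes kept. All 6 were above 0 for genotype on FD, with a median of 0.43, as were 58.3% of all kept genes. All 6 were below 0 for diet in wild type, with a median of -0.18, as were 55.7% of all kept genes. These 2 comparisons share the wild-type FD array. For diet in HSL-null liver, which does not use that array, all 6 were above 0, with a median of 0.35. So were 56.9% of all kept genes. That comparison shares the HSL-null FD array with genotype on FD. Under median scaling 5 of 6 were above 0 for genotype on FD and 3 of 6 below 0 for diet in wild type. For diet in HSL-null liver 5 of 6 were above 0 under that scaling. Slc4a4, a sodium bicarbonate cotransporter, had 55.5 and 41.4 in wild type, beside 55.3 and 70.6 in HSL-null liver, with a genotype ratio of 0.77 on FD. Slc12a7, a potassium chloride cotransporter, had 126.0 and 117.2 in wild type, beside 127.9 and 164.4 in HSL-null liver, Slc9a8, a sodium proton exchanger, 105.5, 85.3, 111.1 and 115.3, and Slc4a2, an anion exchanger, 76.6, 72.1, 62.9 and 82.1. HSL-null on FD was the highest pool for each of these 4 genes.

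**Figure D4:**
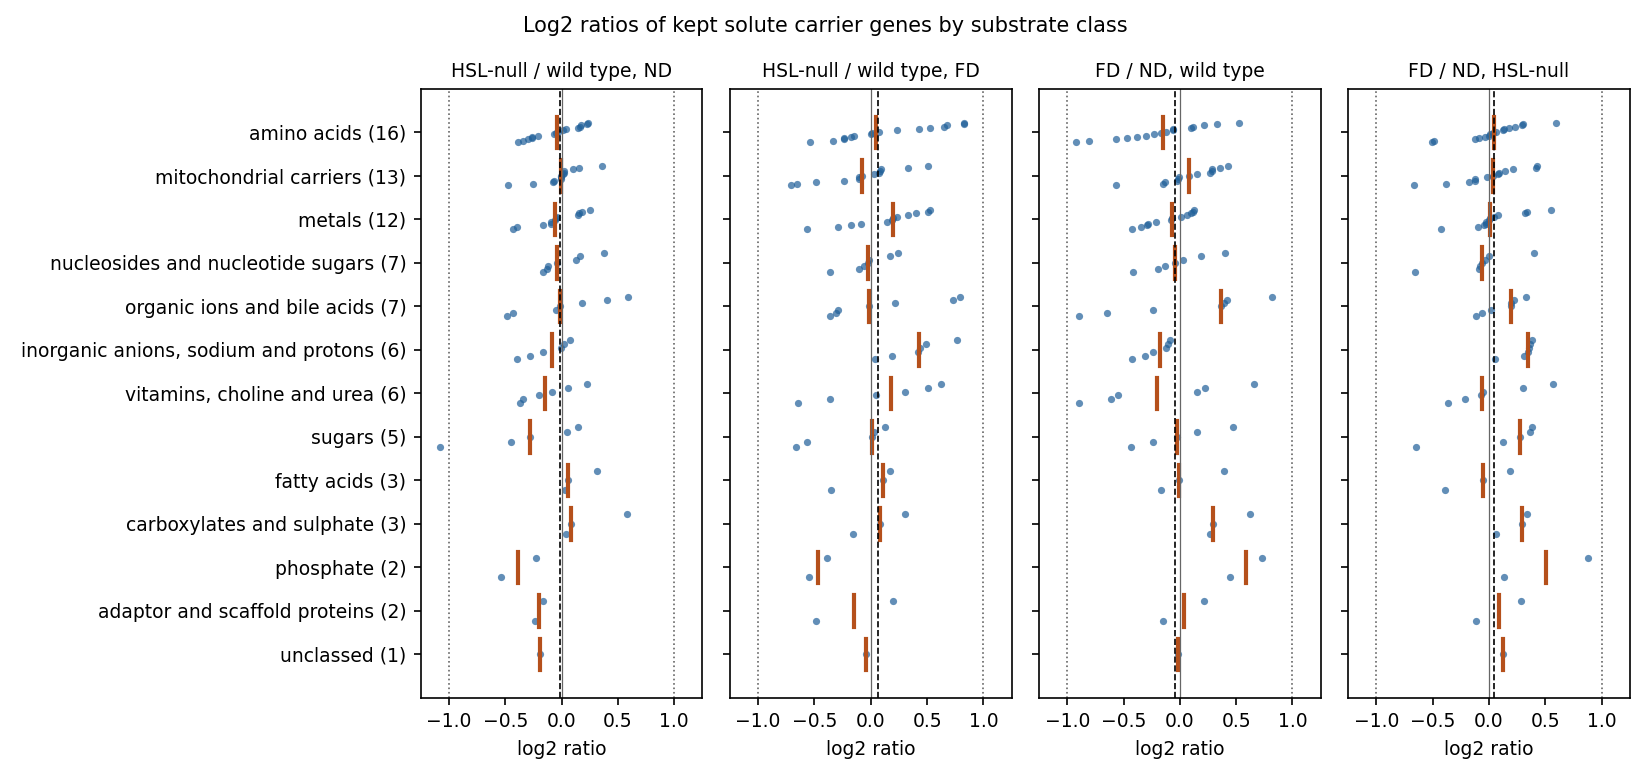
Log2 ratio (x axis) of each kept solute carrier gene (blue points) by substrate class in the 4 comparisons; orange bars are class medians, dashed lines the median of all kept genes, dotted lines 2-fold, and the number of kept genes is in brackets. The class of inorganic anions, sodium and protons lies to the right for genotype on FD (median 0.43) and for diet in HSL-null liver (median 0.35). Most other classes with 5 or more genes straddle 0. Slc5a6 is drawn with the sugars by its family number.

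Metal carriers had 12 of 16 genes kept, and none was past 1.5-fold in any comparison as scaled by the authors. The same held for 74.6% of all kept genes. Slc31a1, the copper importer, had 842.1, 726.9, 818.5 and 803.4, and its other kept probe set gave ratios from -0.093 to 0.17. Slc39a4, a zinc importer, had 354.3, 379.9, 331.6 and 310.7, and Slc30a3, which moves zinc into vesicles, 201.4, 219.9, 188.2 and 194.5. These 3 were level across the pools. Slc11a1, an iron and manganese transporter of macrophage phagosomes, was lower in both HSL-null pools. It had 94.1 and 77.1 in wild type, beside 69.9 and 52 in HSL-null liver, and genotype ratios of -0.43 and -0.57. The ratio on FD passed 1.5-fold under the 3 other scalings, from -0.69 to -0.74. The 7 kept macrophage markers beside it summed to 1830 and 1260 in wild type, beside 1800 and 1673 in HSL-null liver. The part of macrophages in the Slc11a1 values was not tested.

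Slc11a2, the iron importer of gut and endosomes, read differently by probe set. The brighter had 67.5, 64.4, 64.6 and 80.8 and a genotype ratio of -0.063 on ND. The dimmer had 67.8, 45.1, 30.8 and 49.5 and a ratio of -1.14, and no other member with a second kept probe set had ratios 2-fold apart. The data do not tell which probe set reads the gene, and it is not counted as different.

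Carriers of sugars, nucleotide sugars, sulphate and the scaffold proteins completed the kept members. Slc2a8, an intracellular hexose carrier, had 78.3, 77.0, 64.6 and 84.2, and Slc50a1, a sugar carrier of inner membranes, 72.2, 80.4, 74.7 and 81.2. Slc35b1, of the endoplasmic reticulum, had 526.2, 511.4, 510.2 and 490.2, and Slc35d1, which supplies UDP-glucuronic acid there, 298.5, 305.0, 272.7 and 359.9. Slc26a1, a sulphate exchanger, was slightly higher on FD, with 236.5 and 290.5 in wild type, beside 250.9 and 307.2 in HSL-null liver, and Slc16a7, a relative of Slc16a1, had 199.7, 239.9, 204.8 and 214.4. Slc9a3r1, the scaffold that anchors carriers to actin through ezrin, had 649.2, 753.3, 580.0 and 536.5, a genotype ratio of -0.49 on FD, and Slc4a1ap had 35.1, 31.7, 29.8 and 36.4. Slc66a2, which has no substrate class here, had 346.1, 341.3, 302.8 and 330.8. None of these genes reached 1.5-fold as scaled by the authors, nor did 74.6% of all kept genes. Slc9a3r1 had a genotype ratio of -0.66 on FD under median scaling.

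By family number, the groups with 5 or more kept genes also lay near 0 for genotype. Family 35 had medians of 0.042 and -0.018 on ND and FD over 6 genes, family 22 of 0.083 and -0.15 over 6, family 6 of 0.016 and -0.15 over 5, and family 39 of -0.049 and 0.19 over 5. Median scaling moved the median of all genes by more than most of these values.

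The effect of genotype was set between the diets by subtracting the ratio on ND from that on FD. Of the 83 members, 2 were 2-fold or more apart, against 6.32% of all kept genes, and both were more positive on FD, as were 4.93% of all genes, while 1.39% were more negative. At 1.5-fold there were 15 members, beside 22.6%, with 11 more positive on FD (background 16.1%) and 4 more negative (background 6.52%). That split was 9 and 6 under quantile normalization, 4 and 13 under median scaling, and 9 and 4 under cyclic loess. The members 2-fold apart were Slc10a3, at 1.22, and Slc38a5, at 1.22. Slc25a25 followed at 0.99, the zinc carrier Slc30a9 at 0.90, Slc7a2 at 0.87 and Slc44a4, a choline carrier relative, at 0.85. On the negative side Slc22a17 had -0.88 and Slc46a1 -0.87. With a pseudocount of 16 no member was 2-fold apart. The members' genotype ratios went opposite ways on the diets in 39.8%, against 53.3% of all kept genes, and the ratios on ND and FD were weakly correlated across members, with 0.10 by Pearson and 0.10 by Spearman (83 genes, of 2 array pairs with no array in common; genes of 1 array share its scaling and are not independent).

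The 63 genes under the filter include the classic glucose transporters of other tissues, and 18 of them had no probe set above the floor on any array. Their ratios are noisy: 7 of 63 (11.1%) were 2-fold different by genotype on ND, beside 6.93% of all genes under the filter, and 8 (12.7%) on FD, beside 8.27%. For diet, 8 (12.7%) were so in wild type, beside 9.59%, and 5 (7.94%) in HSL-null liver, beside 6.43%. In genotype ratio between the diets 16 (25.4%) were 2-fold apart, beside 16.9%. The members' shares were above those of the other dim genes in each count, which was not tested. Among kept genes no member was 2-fold different by genotype the same way on both diets, beside 0.186%. The 3 that were so in the same direction on both diets, beside 0.497% of genes under the filter, are named after their values were seen. Slc2a1, the glucose transporter of erythrocytes and dividing cells, had 3.2 and 5.7 in wild type, beside 15.1 and 16.4 in HSL-null liver, which is at least 2.48-fold and at least 2.69-fold higher, with wild type set to the floor. Slc2a4, the insulin-regulated glucose transporter of muscle and fat, had 23.5 and 22 in wild type, beside 11.1 and 4.2 in HSL-null liver, lower by 2.12-fold on ND and by at least 3.61-fold on FD. Its other probe set read 4.1 to 7.1 and showed no such difference. Slc35g3 had 10.8 and 8.0 in wild type, beside 33.7 and 21.1 in HSL-null liver.

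Signals of this size are near the floor. Of the adipocyte markers beside Slc2a4, Lep was kept and had genotype ratios of 0.17 and 0.19. Adipoq, under the filter like Slc2a4, had signals of 18.1 and 9.2 in wild type, beside 4.8 and 4.9 in HSL-null liver, with genotype ratios of -1.57 and -0.59, the direction of Slc2a4. Retn was under the floor on every array. The part of fat tissue in the Slc2a4 values was not tested. Slc4a1, the anion exchanger of red blood cells, had 24.7, 17.1, 16.2 and 20.8, while the kept red cell markers summed to 2981, 3081, 2446 and 2610. The probe set annotated to Slc25a3, the mitochondrial phosphate carrier, read 29.6 in the wild-type ND pool and 4.7 to 8.6 elsewhere. The annotation is old, and whether the dim probe sets of Slc25a3 and Slc2a4 read those genes was not tested.

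Genes that work beside the carriers had medians near those of all kept genes for genotype, but a higher one for diet in HSL-null liver. Of 26 such genes listed, 16 were on the array and 13 were kept. Their medians were 0.015 and 0.058 for genotype on ND and FD, beside -0.018 and 0.067 over all kept genes. For diet they were 0.11 in wild type and 0.28 in HSL-null liver, beside -0.047 and 0.041. In the last comparison 11 of the 13 were above 0, as were 56.9% of all kept genes. At 1.5-fold, 0 differed for genotype on ND (background 6.73%) and 2 were higher on FD (background 9.17%). For diet in wild type 1 was higher and 2 were lower (background 4.56% and 9.48%). For diet in HSL-null liver 3 were higher (background 4.14%). A single one was 2-fold different in any comparison, for diet in wild type, where 3.15% of all kept genes were. Abcg2, an exporter of urate and drugs, had 61.2 and 132.3 in wild type on ND and FD and 85.9 and 147.0 in HSL-null liver, 2.16-fold higher on FD in wild type and with a diet ratio of 0.78 in HSL-null liver. Both FD pools were above both ND pools, a separation whose share over all kept genes was not counted. Abca1, which loads cholesterol onto lipoproteins, had 366.1, 240.9, 324.0 and 463.1 and a genotype ratio of 0.94 on FD. The sodium pump subunit Atp1b3 had log2 ratios from -0.19 to 0.015, and the scaffold Pdzk1 from -0.045 to 0.32.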

How the data were processed

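Total RNA from 4 liver pools was read on Affymetrix MG_U74Av2 arrays. The deposited table holds 1 MAS5 signal intensity per probe set and array, which the authors had scaled, per the submitters' processing notes and the values: the 2% trimmed mean was 100.1 on each array. The sources used here give no MAS5 version, and detection calls were not used. Run settings deposited beside them hold no expression value. They gave 1 chip lot and 2 solution lots.

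Probe sets were named through the platform annotation, and 146 of 146 members matched RefSeq by gene identifier. Signals under 6.1, the 25th percentile of non-control values, were raised to that floor and taken to log2. Genes were kept where the brightest probe set had a mean of at least 26.9. With 1 array a group there was no test, and having so few arrays limits the precision. Genes were called different at 2-fold, and described at 1.5-fold. The members and lists were chosen with earlier results of these data known. The rule for named genes took members 2-fold different in a comparison, 1.5-fold the same way in both diets or genotypes, the 3 of highest mean signal in each class, and those whose probe sets differ at 2-fold. Genes outside it, among them most of those past 1.5-fold, were chosen after their values were seen. Alternatives changed the scaling, floor, pseudocount, filter and probe set choice. Python 3.11.15 and pandas 2.3.3 were used, and the steps were tested on simulated data.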

Additional observations from a re-analysis of the deposited data

Results flagged for a closer look

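Some carriers had ratios of opposite direction under the same contrast, each larger than the spread between probe sets of 0.298. With 1 array a group the difference was not tested. For genotype on ND and then on FD, the log2 ratios were -0.49 and 0.73 for Slc10a3, -0.48 and 0.51 for Slc25a25, -0.39 and 0.50 for Slc30a9, -0.39 and 0.82 for Slc38a5, -0.34 and 0.51 for Slc44a4, and -0.34 and 0.53 for Slc7a2. For diet in wild type and then in HSL-null liver, they were -0.89 and 0.33 for Slc10a3, -0.57 and 0.42 for Slc25a25, -0.35 and 0.55 for Slc30a9, -0.55 and 0.31 for Slc44a4, and -0.42 and 0.35 for Slc4a4. The 2 contrasts use the same 4 arrays, so they are not separate evidence. In all 7 genes wild type on FD was below wild type on ND and below HSL-null on FD.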

How the results depend on the processing

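No paired analysis was possible because each group had a single array. Over 50 named members and the 4 comparisons, 1712 of 1724 log2 ratios kept their side of 2-fold and moved by no more than 0.298. That count includes 200 ratios with no filter and 128 under the stricter filter, which could not change. A change of filter leaves the floor and the brightest probe set of a kept gene as they were. Median scaling moves all ratios of a comparison by the same amount, which was below 0.298. Under it only the side of 2-fold could change. Averaging probe sets could change only the members with a second kept probe set. The only ratio past 2-fold was Slc5a6 on ND. It did not reverse, and it fell under 2-fold with 4 of the alternatives. Members 2-fold different for genotype on ND numbered 1, and 0 under quantile normalization, median scaling, cyclic loess, a pseudocount of 16 and the stricter filter (the 75th percentile of means). With no filter, 8 members were 2-fold different for genotype on ND, 8 on FD, 8 for diet in wild type and 5 in HSL-null liver. Under median scaling the members' medians were 0.089 for genotype on ND, -0.13 on FD, 0.12 for diet in wild type and -0.094 in HSL-null liver, and under the stricter filter the FD median was -0.070. Members 2-fold apart in genotype ratio numbered 1 with the floor at the median, 0 with a pseudocount of 16 and the stricter filter, and 18 with no filter. The spread between probe sets was 0.41 with no filter. At 1.5-fold, genotype on ND gave 1 member with the floor at the median and with a pseudocount of 16, 0 under the stricter filter and 21 with no filter. Genotype on FD gave 7 under the stricter filter and 30 with no filter. Diet in wild type gave 5 with a pseudocount, 4 under the stricter filter and 30 with no filter, and diet in HSL-null liver gave 3, 3 and 19. The alternatives for the 1.5-fold counts and their directions, the patterns over several comparisons, the difference of ratios and the spread were added after seeing the data. Fewer genes are tested under the stricter filter and more under none. The signal over background limits all values near the floor.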
